A study of Mus musculus with 16 samples.

Results

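The genes described here are 36 markers of myeloid cells: macrophage and monocyte genes, together with pan-leukocyte genes that all white blood cells share. They were taken by symbol from a list, and 34 of the 36 were found among the 27128 genes of the expression tables. Lyz1 and Pf4 were not found under those symbols. Rows under the older names Lyz and Cxcl4, which RefSeq gives to the same genes, are described apart and are not counted among the 34. The list was drawn up with the levels in the fractions sorted by Oct4-GFP known, so differences between those fractions are given as descriptions.

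Macrophages are tissue phagocytes that mostly depend on the receptor CSF1R to survive. They take up debris and microbes through scavenger and Fc receptors, signal through adaptors that carry an ITAM (an immunoreceptor tyrosine-based activation motif), make the complement protein C1q, and degrade what they engulf in lysosomes rich in cathepsins. In the mammalian testis, macrophages live between and around the seminiferous tubules, whereas germline stem cells, the cells cultured here, lie inside the tubules and do not belong to the blood lineages.

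All cultures were of male germline stem cells from B6;CBA-Tg(Pou5f1-EGFP)2Mnn/J mice, in which a transgene makes GFP from the promoter of Pou5f1 (Oct4). They were started from Oct4-positive, KIT-negative germ cells isolated by flow cytometry at postnatal day 5.5, and grown in StemPro-34 SFM, a medium without serum, to which GDNF, bFGF and EGF were added. A time course had cells on a feeder layer of mouse embryonic fibroblasts (MEF; day 0) and 4 and 9 days after they were moved from feeders to Matrigel, a basement membrane extract. Epithelial-like cells grew on Matrigel at 0.1 µg/cm2 and mesenchymal-like cells on Matrigel at 10 µg/cm2. GFP-low, GFP-mid and GFP-high cells (the low, mid and high fractions) were sorted from culture on Matrigel at 10 µg/cm2, the density of the unsorted mesenchymal-like culture. A last set stayed on feeders and received the solvent DMSO or, for 48 hours, UNC0638, an inhibitor of the histone methyltransferase G9a, at 0.5, 1 or 2 µM. Each of these 12 groups has 1 RNA library made by a low-input protocol of the Smart-seq2 type. There is therefore no spread between replicates, no test was made, and each interval below covers counting error only. The 4 chromatin accessibility libraries were not analysed here.

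Total counts ran from 4335185 to 12019651 per library, and levels are given as CPM, read counts scaled to the size of the library with TMM factors. Counts quoted below are not scaled for depth. The totals were 7925471, 12019651 and 8774041 in the low, mid and high fractions. More counts in GFP-mid than in GFP-low cells therefore need not mean a higher level. A floor of 3 counts, the upper limit that a count of 0 allows, corresponds to 0.238 to 0.724 CPM. The germ cell genes Ddx4, an RNA helicase, and Dazl, an RNA-binding protein, were at 416 to 870 CPM and 1434 to 2047 CPM. Pou5f1 was at 83.9, 176 and 367 CPM from the low to the high fraction and at 43.5 to 77.0 CPM in the other 9, so its order followed the sort.

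Most of the myeloid genes had reads mainly in the sorted fractions, at nearly equal levels in GFP-low and GFP-mid cells and far lower in GFP-high cells. The low, mid and high fractions had 30, 32 and 28 of the 34 genes above 3 counts, whereas the other 9 libraries had 8 to 15. The matching share over all genes is not given here. Those 3 counts equal 0.376, 0.238 and 0.318 CPM in the fractions and 0.244 to 0.724 CPM in the other 9. Nothing is read from these numbers of genes alone. Of the 34 genes, 23 are largely restricted to leukocytes and 11 are also made by other cell types, as sorted from general knowledge. Coro1a is left out of the restricted genes in the sums that follow, a choice made after its values were seen, because it had at least 121 counts in each library.

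The remaining 22 restricted genes together had 4154 counts in GFP-low cells, or 521 CPM (95% Poisson interval 505 to 537). In GFP-mid cells they had 6901 counts, or 546 CPM (534 to 560), and in GFP-high cells 543 counts, or 57.6 CPM (52.9 to 62.7). As shares of all counts these were 0.0524%, 0.0574% and 0.00619%. The sum was 1.05-fold higher in GFP-mid than in GFP-low cells (95% Clopper-Pearson interval of the read split 1.01 to 1.09), and 9.04-fold higher in GFP-low than in GFP-high cells (8.26 to 9.90). With Coro1a in the sum these values were 1.04-fold (1.00 to 1.07, an interval that includes no difference) and 4.72-fold (4.43 to 5.03). In bulk libraries, fewer cells of a type and less RNA per cell cannot be told apart.

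In the unsorted mesenchymal-like culture the same 22 genes had 188 counts, or 45.4 CPM (39.1 to 52.4), below each of the sorted fractions at that Matrigel density. The sum was 11.5-fold higher in GFP-low cells than in that culture (9.91 to 13.4). Without Cd53, left out after its level there was seen, the value was 28.1-fold (22.4 to 35.8), and with Coro1a added to the 22 genes it was 6.84-fold (6.15 to 7.63). The epithelial-like culture had 35 counts, or 8.21 CPM (5.72 to 11.4), and the 7 libraries of the time course and the inhibitor experiment had 8.38 to 13.5 CPM. For comparison, the summed level of 25 germ cell markers was 7959, 6927 and 6903 CPM in the low, mid and high fractions.

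**Figure D1:**
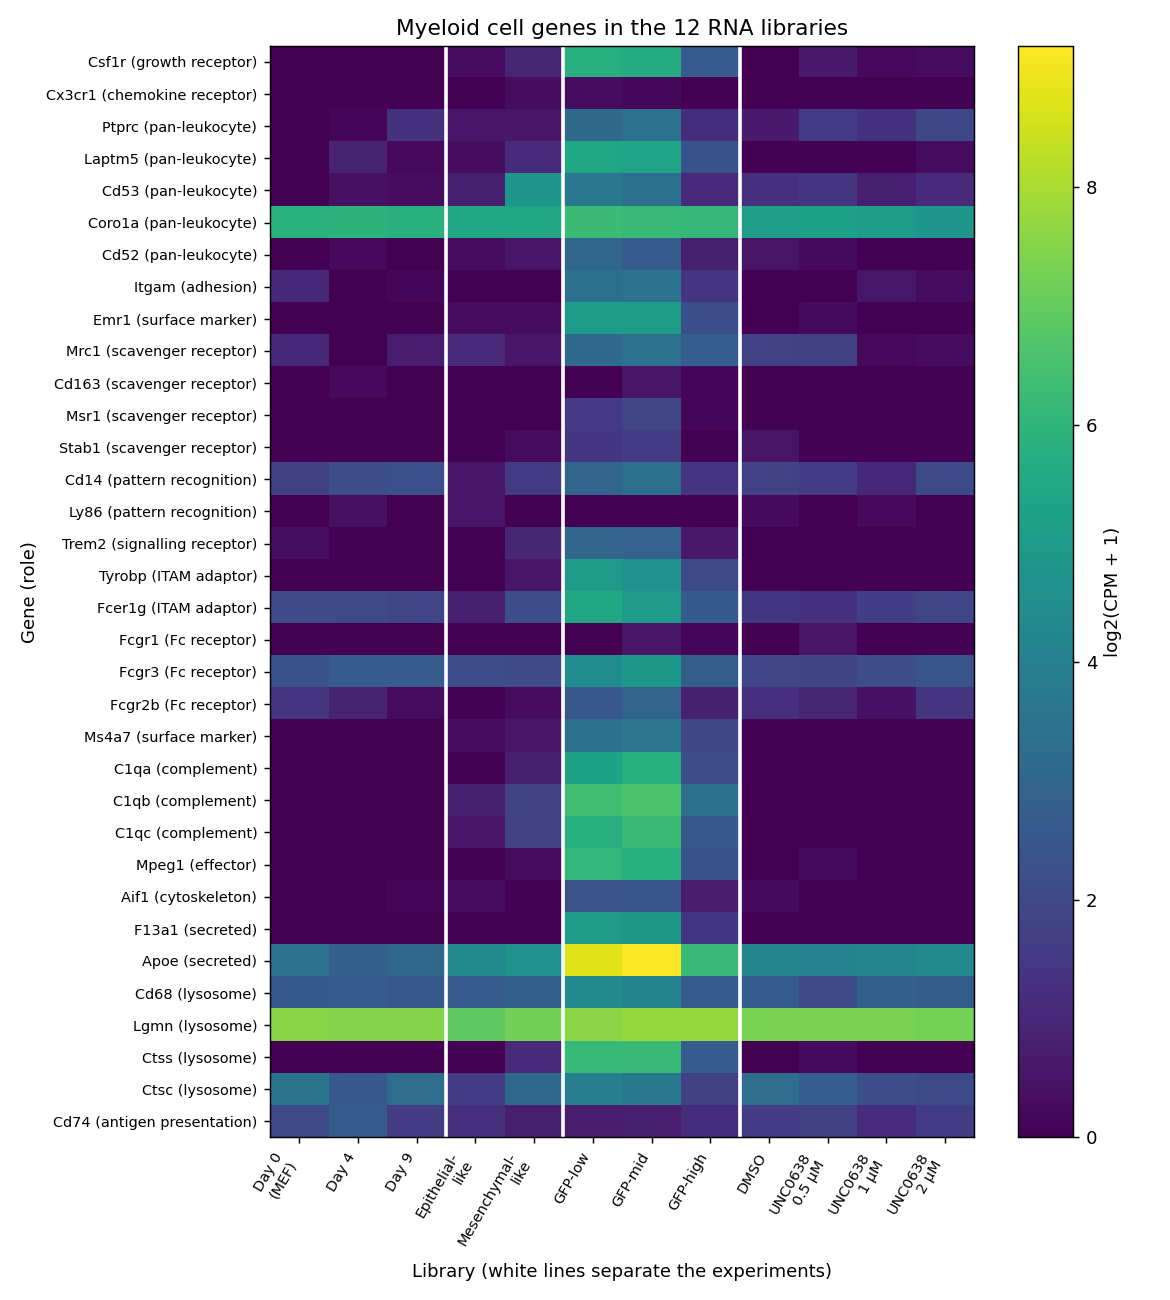
Level of each of the 34 genes (rows, with their roles) in each of the 12 RNA libraries (columns), as log2(CPM + 1) on the colour scale. The GFP-low and GFP-mid columns are bright for most rows and the GFP-high column is dimmer, while Coro1a and Lgmn are bright across the whole width.

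A low-count filter (mean CPM across the 12 libraries of 1 or more) kept 27 of the 34 genes. Of these, 16 passed only through the sorted libraries, so they had to differ between those and the rest, and 11 would have passed on the other 9 libraries alone. The 7 genes below the filter were Cx3cr1, Cd163, Msr1, Stab1, Ly86, Fcgr1 and Aif1. A gene is called lower or higher below where log2(CPM + 1) differs by at least 1, a 2-fold change on that scale. In GFP-high against GFP-low cells, 23 of the 27 genes were called lower, beside 2.59% of all 14301 genes kept, and 0 were called higher, beside 6.94%. In GFP-high against GFP-mid cells, 23 were again called lower, beside 1.52%, and 0 higher, beside 1.32%. The list was chosen on these fractions, so nothing is read from these counts. The median log2 difference of the 27 genes was -2.37 for GFP-high against GFP-low and -2.24 for GFP-high against GFP-mid, while over all genes kept it was -0.02 and -0.00.

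Csf1r, the receptor tyrosine kinase for the macrophage growth factors CSF1 and IL34, had 419, 635 and 49 counts in the low, mid and high fractions. These are 52.5, 50.3 and 5.20 CPM, and in the other 9 libraries it had at most 4 counts. Its level was 10.1-fold higher in GFP-low than in GFP-high cells (7.50 to 13.9), and GFP-mid and GFP-low differed by less than the counting error.

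Csf1, a ligand gene of this receptor, was highest in GFP-high cells among the fractions. Csf1 had 13, 13 and 92 counts in the low, mid and high fractions, or 1.63, 1.03 and 9.77 CPM. In the unsorted mesenchymal-like culture it had 1778 counts (429 CPM), and in the epithelial-like culture 44 counts (10.3 CPM). Across the time course Csf1 was at 10.4 to 12.2 CPM, and in the DMSO library at 38.3 CPM. Ccl2, a chemokine that attracts monocytes, was at 155 CPM in the mesenchymal-like culture, 3.05 CPM in the epithelial-like culture and 1.03 to 1.38 CPM in the 3 sorted fractions. Il34, the gene of the other ligand (measured under its older symbol 2010004A03Rik), had 0 counts in each of the 3 fractions, 58 counts in the mesenchymal-like culture and at most 8 in any other library. These genes belong to a list of 14 myeloid growth factors and chemoattractants, of which 10 passed the filter. In GFP-high against GFP-low cells 5 of the 10 were called higher and 1 lower, beside 6.94% and 2.59% of all genes. In GFP-high against GFP-mid cells 1 (Csf1) was called higher and 1 (the complement gene C3) lower, beside 1.32% and 1.52%. Csf1r and the genes Csf1, Il34 and Ccl2 were thus high in different libraries. The plot of receptor and ligand levels shows Csf1r, Csf1 and Ccl2 in each library, without Il34.

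**Figure D2:**
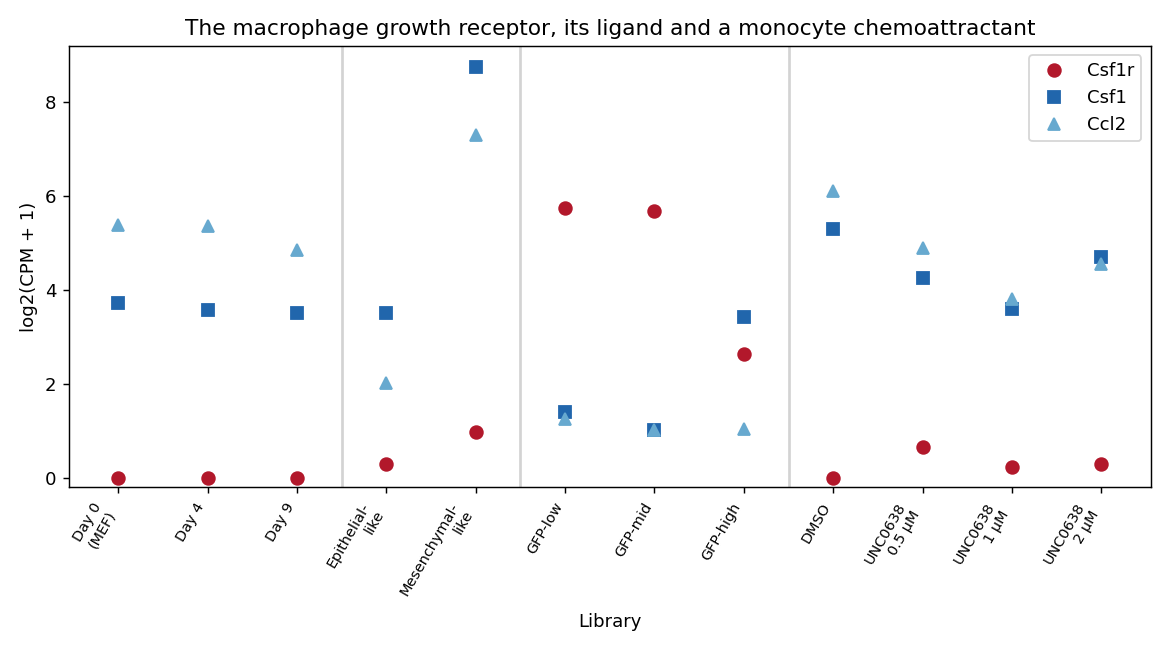
Level of the receptor gene Csf1r, its ligand gene Csf1 and the chemokine gene Ccl2 in each of the 12 libraries, as log2(CPM + 1), with grey lines between the experiments. Csf1r is highest in GFP-low and GFP-mid cells, at 52.5 and 50.3 CPM, and Csf1 in the mesenchymal-like culture, at 429 CPM.

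Among the pan-leukocyte genes, 4 of 5 were high in the GFP-low and GFP-mid fractions and far lower in GFP-high cells, a step that Coro1a lacked. Ptprc, which encodes the transmembrane phosphatase CD45 of nucleated blood cells, was at 8.15, 9.66 and 1.27 CPM in the low, mid and high fractions, and at 0 to 2.98 CPM in the other 9. Laptm5, a lysosomal membrane protein of leukocytes, was at 42.5, 40.5 and 4.03 CPM, and reached at most 1.21 CPM elsewhere. Cd52, a small GPI-anchored glycoprotein that is also made in the male genital tract, was at 7.27, 5.15 and 0.743 CPM, with at most 2 counts in any other library.

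Cd53, a leukocyte tetraspanin, departed from this pattern. It was at 11.9, 9.27 and 1.17 CPM in the low, mid and high fractions, but its highest level was in the unsorted mesenchymal-like culture, at 27.3 CPM (113 counts). That gene alone gave 60.1% of the 188 counts of the 22 restricted genes in that culture. In the epithelial-like culture Cd53 had 3 counts, and in the remaining 7 libraries 0 to 9. Coro1a, an actin-binding coronin of leukocytes, was at 77.0, 72.6 and 69.0 CPM in the 3 fractions and at 27.7 to 60.6 CPM in the other 9, so each fraction lay above every unsorted library. Coro1a was 1.12-fold higher in GFP-low than in GFP-high cells (1.00 to 1.25), whereas the other 22 restricted genes together differed 9.04-fold.

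The adhesion and surface receptor genes of macrophages followed the fractions. Emr1 (Adgre1), which encodes the macrophage marker F4/80, had 247, 402 and 34 counts in the low, mid and high fractions and at most 1 count in any of the other 9. Itgam, the CD11b chain of complement receptor 3, had 74, 131 and 15 counts, and 8 counts on feeders at day 0. Ms4a7, a membrane protein of macrophages, had 73, 146 and 27 counts and at most 2 elsewhere. Its step was the smallest among the restricted genes with at least 50 counts other than Coro1a, 3.19-fold between GFP-low and GFP-high cells (2.03 to 5.17).

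The scavenger receptors among the 34 genes had at most 123 counts in any library, and they divided. Msr1, a class A scavenger receptor, had 15, 35 and 1 counts in the low, mid and high fractions and 0 in each of the other 9. Stab1 (stabilin-1), which sinusoidal and lymphatic endothelium also makes, had 14, 27 and 0 counts. With the GFP-high library set at the floor of 3 counts, the Stab1 level was 5.51-fold higher in GFP-low than in GFP-high cells. That value leaves out the counting error of the 14 counts, so it is not a lower limit. The counting interval of the log2 ratio of GFP-high to GFP-low reached up to -1.97, a smaller difference. Mrc1, the mannose receptor CD206, which some endothelium also makes, had 63, 123 and 53 counts. GFP-low was 1.40-fold above GFP-high (0.96 to 2.06), a difference within counting error, and GFP-mid was 1.73-fold above GFP-high (1.24 to 2.44), beyond it. Mrc1 also had 12 counts with DMSO and 8 on feeders at day 0. Cd163, the scavenger receptor for haemoglobin bound to haptoglobin, had 0, 6 and 1 counts in the fractions, too few to order them.

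Receptors that sense lipids and microbial products, and the adaptors they signal through, gave the next group. Tyrobp (DAP12), an ITAM adaptor, had 263, 306 and 30 counts in the low, mid and high fractions and at most 2 in any other. Its partner Trem2, a lipid-sensing receptor, had 55, 80 and 5 counts, and at most 4 elsewhere. The other adaptor, Fcer1g, the common gamma chain of activating Fc receptors, was at 44.0, 30.3 and 5.10 CPM. Unlike Tyrobp it had reads in all 9 other libraries, at 0.704 to 3.62 CPM. Both adaptors were lower in GFP-mid than in GFP-low cells by more than counting error: GFP-low was 1.36-fold higher for Tyrobp (1.15 to 1.61) and 1.45-fold higher for Fcer1g (1.26 to 1.69).

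Cd14, a co-receptor for lipopolysaccharide that some epithelial cells also make, was at 7.02, 8.95 and 1.70 CPM in the 3 fractions and at 0.469 to 3.74 CPM elsewhere. Its GFP-high level lay inside the range of the unsorted libraries. A pair of myeloid receptors was missing from the pattern. Cx3cr1, the receptor for the chemokine CX3CL1, had at most 2 counts in any of the 12 libraries. Ly86 (MD-1), the partner of a TLR4-like receptor, had 0 counts in all 3 fractions and at most 4 in any other library. Neither passed the floor of 3 counts in the fractions.

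The Fc receptors bind the constant part of antibodies. Fcgr3, an activating IgG receptor of low affinity, was at 20.9, 29.0 and 5.94 CPM in the low, mid and high fractions, and it was the restricted gene besides Coro1a that had more than 3 counts in all 12, at 2.70 to 5.33 CPM in the other 9. Its reads were the largest single part of the 22-gene sum in 8 of those 9 libraries. Fcgr2b, the inhibitory receptor, was at 4.64, 6.57 and 0.743 CPM, and at 0 to 1.69 CPM elsewhere. The high-affinity receptor Fcgr1 had 0, 6 and 1 counts in the fractions, at most 2 in any other library. Fcgr3 and Fcgr2b lie near each other on chromosome 1 and are close in sequence, so reads could have been shared between them in counting and their separate values are uncertain.

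Complement C1q, which binds antibody complexes and dying cells, is built from 3 chains whose genes lie side by side on chromosome 4 (GRCm38.p6), with C1qc between C1qb and C1qa. The gaps between them were 3600 and 2979 bases, and RefSeq annotates no other gene in either gap. C1qa had 309, 672 and 33 counts in the low, mid and high fractions, C1qb had 651, 1207 and 86, and C1qc had 427, 949 and 46. All 3 had 0 counts in each of the 7 libraries of the time course and the inhibitor experiment. The few reads elsewhere were 3, 10 and 10 counts in the mesenchymal-like culture and 0, 3 and 2 in the epithelial-like one.

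C1qb had the largest share of the 3 chains in each fraction. On the TPM scale, which also corrects for transcript length, C1qa, C1qb and C1qc made up 21.8%, 47.0% and 31.1% of their sum in GFP-low cells, 23.3%, 42.8% and 33.9% in GFP-mid cells, and 19.6%, 52.2% and 28.2% in GFP-high cells. In the mesenchymal-like culture, on the few counts above, the shares were 12.7%, 43.5% and 43.8%. Whether the shares differ between libraries was not tested. All 3 were higher in GFP-mid than in GFP-low cells beyond counting error, by 1.37-fold, 1.17-fold and 1.40-fold in the order A, B, C. The step between GFP-low and GFP-high cells was 11.1-fold for C1qa (7.71 to 16.4), 8.94-fold for C1qb (7.13 to 11.3) and 11.0-fold for C1qc (8.08 to 15.2).

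Mpeg1, F13a1 and Aif1 had reads almost only in the fractions. Mpeg1 (perforin-2), a pore-forming protein that acts on engulfed bacteria, had 532, 686 and 37 counts in the low, mid and high fractions and at most 1 in any other. In CPM Mpeg1 was at 66.7, 54.3 and 3.93 in the fractions. Among the restricted genes with at least 50 counts it had the largest step from GFP-low to GFP-high, 17.0-fold (12.2 to 24.4). F13a1, the A subunit of coagulation factor XIII, which megakaryocytes also make, had 258, 361 and 17 counts and 0 in each of the other 9 libraries. These are 32.4, 28.6 and 1.80 CPM, with a step from GFP-low to GFP-high of 17.9-fold (11.0 to 31.3). Aif1 (IBA1), an actin-binding protein, had 33, 57 and 6 counts and at most 1 elsewhere. All 3 were at or under the floor in every unsorted library.

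The rows under older symbols are given as counts, which are not scaled for depth, so GFP-low and GFP-mid cells are not ordered by them. Lyz, the lysozyme now named Lyz1, had 120, 62 and 11 counts in the low, mid and high fractions and at most 1 elsewhere. Its near copy Lyzs, now named Lyz2, is the main lysozyme of macrophages and had 12155, 17088 and 1719 counts, with 125 in the mesenchymal-like and 66 in the epithelial-like culture and at most 3 in the other 7 libraries. Reads may be split between the 2 copies, so the value for Lyz is uncertain. Cxcl4, now named Pf4, a chemokine of platelets and some macrophages, had 10, 20 and 7 counts in the fractions and 7 in the mesenchymal-like culture.

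**Figure D3:**
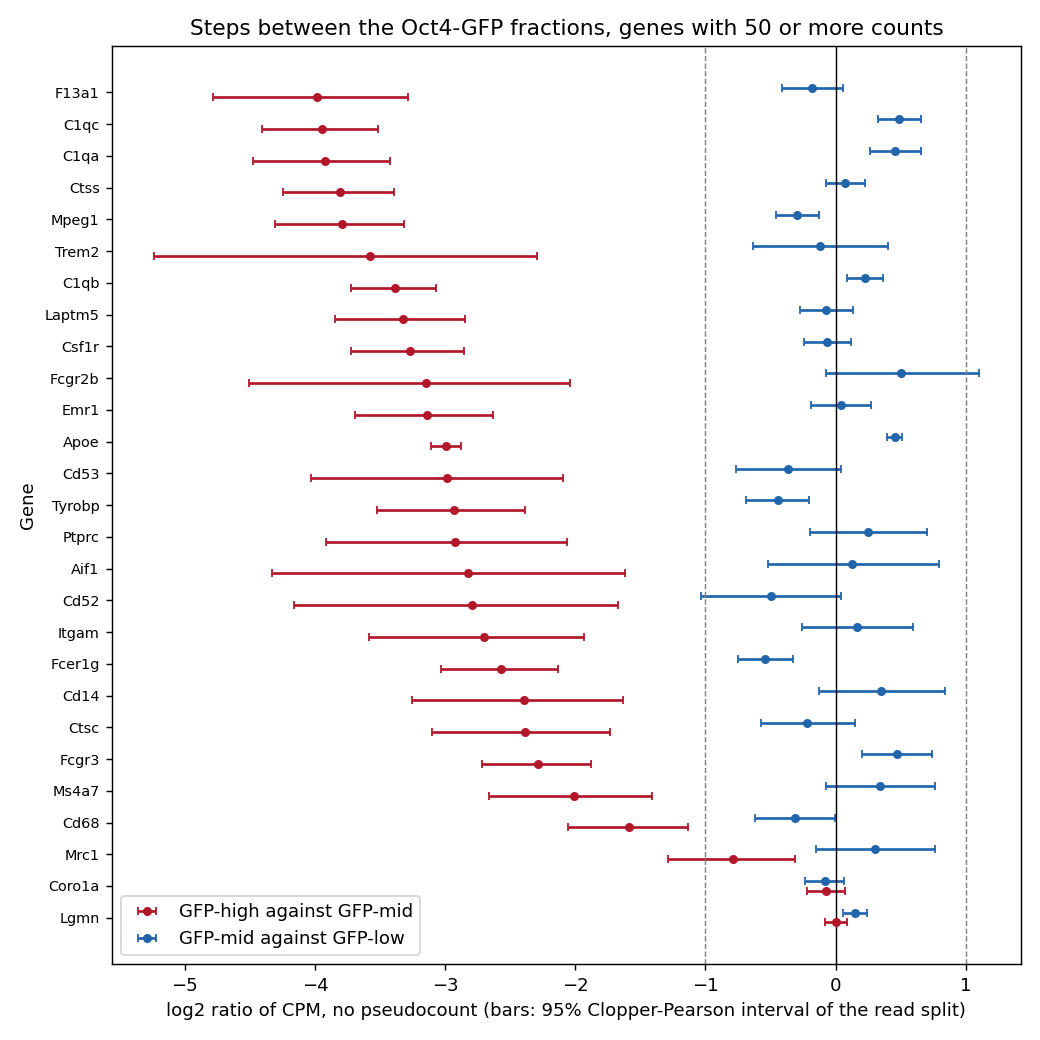
log2 ratio of CPM, without a pseudocount, for GFP-high against GFP-mid (red) and GFP-mid against GFP-low (blue), for each gene with at least 50 counts in the GFP-mid or GFP-high library. Bars are the 95% Clopper-Pearson interval of the read split and dashed lines mark a 2-fold difference. Blue points lie within the dashed lines for every gene shown, and red points lie beyond -1 except for Mrc1, Coro1a and Lgmn.

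Ctss, Ctsc, Cd68 and Lgmn, genes of lysosomal proteins, are all among the 11 that other cell types also make, and they differed in how far they followed the fractions. Ctss (cathepsin S), a protease of antigen-presenting cells, had 562, 937 and 50 counts in the low, mid and high fractions, 5 in the mesenchymal-like culture and at most 1 in the other 8. Its step from GFP-low to GFP-high was 13.3-fold (9.93 to 18.1). Ctsc (cathepsin C), which activates serine proteases of granules, was at 14.2, 12.2 and 2.34 CPM, while the other libraries spanned 2.11 to 10.8 CPM. Its level in GFP-high cells was therefore near the bottom of the unsorted range.

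Cd68 (macrosialin), a lysosomal glycoprotein that is high in macrophages and low in many other cells, was at 20.2, 16.2 and 5.41 CPM in the 3 fractions. The other 9 libraries were at 3.27 to 6.28 CPM, so the GFP-high value of Cd68 lay inside their range. GFP-low was 3.73-fold above GFP-high (2.71 to 5.22). Lgmn, an asparaginyl endopeptidase of lysosomes in many tissues, was at 193, 214 and 214 CPM in the fractions and at 118 to 185 CPM elsewhere. Lgmn had no step between GFP-mid and GFP-high cells (1.00-fold, 0.94 to 1.06), and at least 503 counts in each library.

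Apoe, the lipid carrier that macrophages, hepatocytes and other cells secrete, was the most abundant of the 34 genes per length in GFP-low and GFP-mid cells, at 738 and 1054 TPM. In CPM it was at 425, 582 and 73.2 in the low, mid and high fractions. The other 9 spanned 6.01 to 25.6 CPM with a median of 16.9 CPM. Against that median the fractions were 25.1-fold, 34.4-fold and 4.33-fold higher, so Apoe in GFP-high cells still stood above every unsorted library. The step from GFP-low to GFP-high was 5.81-fold (5.35 to 6.31), below those of Mpeg1, F13a1 and Ctss.

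Cd74, the invariant chain of MHC class II, was not high in the low and mid fractions. It had 5, 9 and 12 counts in the low, mid and high fractions, or 0.627, 0.713 and 1.27 CPM, and its highest level was 5.42 CPM (64 counts) at day 4. The difference between GFP-high and GFP-low lay within counting error (95% interval of the log2 ratio -0.59 to 2.88). Genes of dendritic cells and MHC class II summed to 53.7, 51.6 and 54.5 CPM in the fractions and 47.9 to 66.2 CPM over all 12 libraries. The class II genes H2-Ab1 and H2-Eb1 had 0 to 5 counts in each fraction, and Itgax (CD11c) had 0 counts in all 12 libraries. Of the 18 genes of that list, 6, 10 and 8 were above 3 counts in the low, mid and high fractions, so its sum rests mostly on others.

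**Figure D4:**
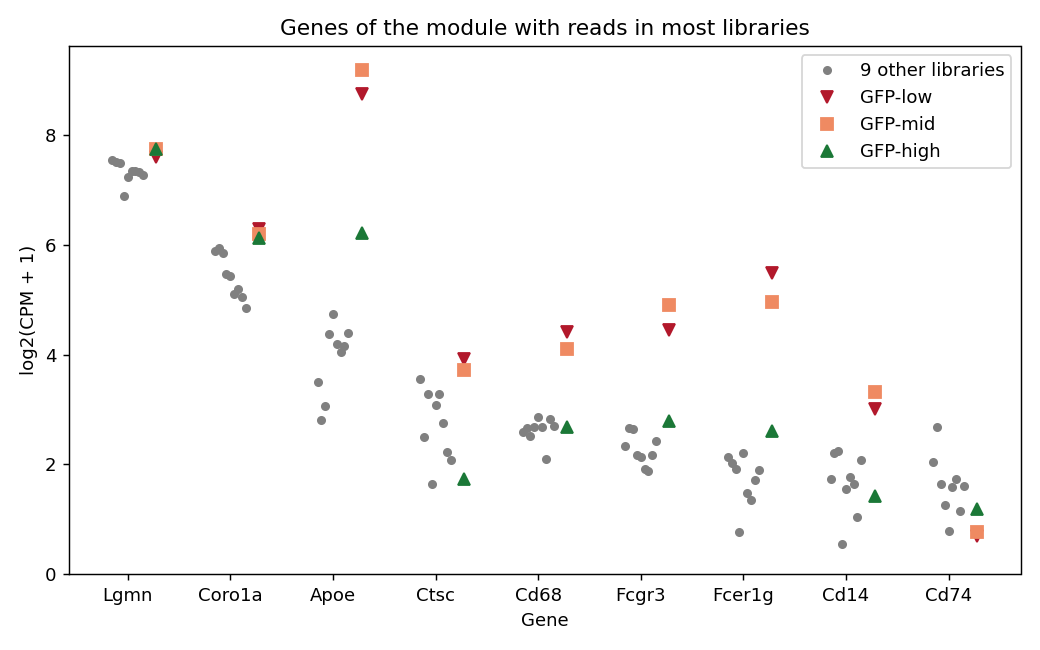
Level of 9 of the genes that had reads outside the sorted fractions, as log2(CPM + 1), for the 9 unsorted libraries (grey) and the 3 fractions (coloured symbols). Apoe, Fcgr3 and Fcer1g in GFP-low and GFP-mid cells stand clear of the grey points, whereas Lgmn and Coro1a lie close to them and Cd74 lies at their lower end.

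The size of the step differed between the genes. Of the restricted genes, 16 had at least 50 counts in GFP-low or GFP-high cells, and their median step was 9.50-fold, from 1.12-fold (Coro1a) to 17.0-fold (Mpeg1). Without Coro1a, left out after its values were seen, the median of the 15 others was 10.1-fold and the smallest step 3.19-fold (Ms4a7). The interval of the step held the 22-gene value for 12 of the 15. From GFP-mid to GFP-high the median over 18 genes was 8.37-fold, from 1.05-fold (Coro1a) to 15.4-fold (C1qc), and over the 17 without Coro1a it was 8.82-fold, with 4.03-fold (Ms4a7) as the smallest. Across the 22 restricted genes, log2(TPM + 1) in GFP-low and GFP-mid cells had a Pearson r of 0.99, and in GFP-low and GFP-high cells of 0.94. These correlations are across genes within libraries that share a protocol, genes are not independent replicates, and they only describe a shared order of abundance.

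Between GFP-mid and GFP-low cells, 0 of the 27 kept genes were called lower, beside 0.685% of all genes, and 0 were called higher, beside 3.38%. Smaller differences beyond counting error ran in both directions. C1qa, C1qb, C1qc, Apoe, Fcgr3 and Lgmn were higher in GFP-mid cells, by log2 differences of 0.45, 0.23, 0.48, 0.45, 0.45 and 0.15. Fcer1g, Tyrobp, Mpeg1 and Cd68 were lower in GFP-mid cells, by -0.53, -0.43, -0.29 and -0.30. For the 17 other kept genes the counting interval included 0.

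The order of abundance per length changed in GFP-high cells. In GFP-low cells Apoe (738 TPM) was followed by Lgmn (181), C1qb (146), Fcer1g (144) and Tyrobp (131). In GFP-mid cells Apoe (1054 TPM) was followed by Lgmn (209), C1qb (178) and C1qc (141). In GFP-high cells Lgmn (223 TPM) came first, then Apoe (142) and Coro1a (86.0), with Fcer1g next at 18.6. Apoe and Lgmn, which other cells also make, held the first places in all 3 fractions.

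Genes that step together between fractions invite a look at their promoters. RefSeq windows (GRCm38.p6; 250 bases before to 50 after a gene's start) were at hand for 28 of the 36 listed genes, and not for Csf1r, Cd52, Emr1, Msr1, Cd14, Tyrobp, C1qa and Cd74. The letters GAGGAAGT, a core of the kind bound by the myeloid factor PU.1, occurred on either strand in 6 of the 28 genes (21.4%), namely Cd53, C1qc, F13a1, Pf4, Ctss and Ctsc. Over all 27025 genes with windows the share was 3.69%. The letters TTGCGCAA, of the type bound by C/EBP factors, occurred in 0 of the 28 genes and in 0.207% of all genes. A match describes letters in a window and is neither a binding site nor a cause.

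The sequences below show 200 bases before and 25 from the start of 6 genes with large steps between the fractions or, for Cd53, with a high level in the mesenchymal-like culture too. Each is given 5′ to 3′ on the gene's own strand, and capitals mark GAGGAAGT or its reverse complement ACTTCCTC. C1qc (chr4:136892890-136893114, minus strand), Ctss (chr3:95526586-95526810, plus strand), Cd53 (chr3:106790125-106790349, minus strand) and the second of 2 annotated starts of F13a1 (chr13:37049189-37049413, minus strand) hold a match. C1qb (chr4:136886176-136886400, minus strand) and Mpeg1 (chr19:12460570-12460794, plus strand) hold none in this stretch.
C1qc: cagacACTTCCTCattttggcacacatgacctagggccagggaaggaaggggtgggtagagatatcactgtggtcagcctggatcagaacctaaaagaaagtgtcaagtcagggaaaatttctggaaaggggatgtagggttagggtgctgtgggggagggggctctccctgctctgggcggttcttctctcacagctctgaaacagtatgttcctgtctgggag
Ctss: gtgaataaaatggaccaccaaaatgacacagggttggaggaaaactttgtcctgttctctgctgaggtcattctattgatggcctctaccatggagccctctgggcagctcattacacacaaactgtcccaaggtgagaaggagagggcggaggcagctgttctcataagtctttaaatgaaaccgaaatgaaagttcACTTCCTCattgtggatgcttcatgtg
Cd53: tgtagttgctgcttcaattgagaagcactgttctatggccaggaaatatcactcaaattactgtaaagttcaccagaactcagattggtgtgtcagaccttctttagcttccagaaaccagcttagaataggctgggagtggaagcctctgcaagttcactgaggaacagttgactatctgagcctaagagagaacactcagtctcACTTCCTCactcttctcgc
F13a1: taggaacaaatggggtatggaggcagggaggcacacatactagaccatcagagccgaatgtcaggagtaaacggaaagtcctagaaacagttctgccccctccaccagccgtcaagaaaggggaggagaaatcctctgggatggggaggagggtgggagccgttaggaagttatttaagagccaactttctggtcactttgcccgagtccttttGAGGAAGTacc
C1qb: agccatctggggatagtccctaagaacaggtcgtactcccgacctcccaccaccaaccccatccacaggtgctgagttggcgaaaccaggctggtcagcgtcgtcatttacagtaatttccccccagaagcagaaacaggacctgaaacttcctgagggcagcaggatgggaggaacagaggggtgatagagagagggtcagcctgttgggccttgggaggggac
Mpeg1: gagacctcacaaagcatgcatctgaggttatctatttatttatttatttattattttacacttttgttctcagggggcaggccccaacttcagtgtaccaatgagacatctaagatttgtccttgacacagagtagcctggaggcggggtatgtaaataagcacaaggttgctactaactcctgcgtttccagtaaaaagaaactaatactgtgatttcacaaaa
In these stretches the match begins 195 bases before the start in C1qc and 2 bases before it in Ctss. In Cd53 and F13a1 it begins after the start, at bases 7 and 15 counted from 1 at the start base. Mpeg1, with the largest step among the restricted genes of at least 50 counts, has no match here, and C1qb differs in this from its neighbour C1qc.

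Between the unsorted epithelial-like and mesenchymal-like cultures, Cd53 had the largest difference of the 27 kept myeloid genes. In the libraries outside the sort, many of the 27 kept genes had too few reads to be called. In the comparison of the cultures, 10 of the 27 had 3 counts or fewer in both libraries, and in each comparison of the time course and the inhibitor experiment this held for 13 or 14. The lack of a call says nothing about those genes. Between these cultures 6 of the 27 genes were called higher in the mesenchymal-like one, beside 10.7% of all genes, and 0 lower, beside 1.78%. These 6 were Cd53, Fcer1g, C1qb, C1qc, Ctss and Ctsc. Cd53 had 113 counts against 3, a log2 difference of 4.05. Fcer1g had 15 against 3, Ctsc 31 against 9, C1qc 10 against 2, C1qb 10 against 3 and Ctss 5 against 0. For C1qb and Ctss the counting interval includes no difference. The summed 22 genes were 5.53-fold higher in the mesenchymal-like culture (3.84 to 8.17), but without Cd53, left out after its level was seen, the value was 2.41-fold (1.57 to 3.77), on 75 against 32 counts. With Coro1a added to the 22 genes it was 1.70-fold (1.43 to 2.02). Both libraries are among the shallowest, with totals of 4541279 and 4459984.

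Cd44, a hyaluronan receptor of leukocytes and many mesenchymal cells, was likewise high in the mesenchymal-like culture, at 374 CPM, and at 4.99 to 9.34 CPM in the fractions. Fibroblast markers summed to 8843 CPM in that culture, 356 CPM in the epithelial-like one, and 120, 155 and 266 CPM in the low, mid and high fractions. Their part in the Cd53 result was not tested.

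In the time course, at day 4 against day 0, 3 of the 27 were called lower, beside 1.03% of all genes, and 0 higher, beside 1.25%. They were Itgam and Mrc1, each with 8 counts at day 0 and 0 at day 4, and Ctsc with 83 and 55. At day 9 they had 1, 8 and 108 counts, and none of the 3 was called against day 0. At day 9 against day 0, Fcgr2b was called lower (3 against 13 counts), beside 0.979%, and Ptprc higher (18 against 0 counts), beside 1.62%. Except for Ctsc these calls rest on 18 or fewer counts. Fcgr3 was at 4.02, 5.33 and 5.29 CPM at days 0, 4 and 9 (31, 63 and 65 counts in libraries of unequal depth), and both differences from day 0 lay within counting error.

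With UNC0638 at 0.5 µM against DMSO, 0 of the 27 were called lower, beside 2.13% of all genes, and 0 higher, beside 1.58%. At 1 µM, 2 were called lower, beside 4.12%, and 0 higher, beside 2.59%. At 2 µM, 2 were called lower, beside 3.59%, and 1 higher, beside 3.42%. The genes called lower were Mrc1 and Ctsc at both doses. Mrc1 had 12 counts with DMSO, 12 at 0.5 µM, and 1 at each of the higher doses. Ctsc had 44 counts with DMSO and 30, 21 and 14 with rising dose, or 8.78, 5.78, 3.67 and 3.21 CPM. Ptprc, called higher at 2 µM, had 3 counts with DMSO and 11, 9 and 13 with inhibitor.

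The 3 inhibitor comparisons share the DMSO library, and the fibroblast markers were not level across them. Their summed level was 3765 CPM with DMSO and 1356, 532 and 697 CPM at 0.5, 1 and 2 µM. The part of feeder or other fibroblast RNA in the Mrc1 and Ctsc values was not tested. The 22 restricted genes summed to 8.38 CPM with DMSO and 10.4, 9.25 and 13.5 CPM at the 3 doses, with overlapping counting intervals.

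A list of 70 other measured macrophage genes was drawn up with earlier results of these data known, so its counts are a description. The filter kept 38 of them, 18 only through the sorted libraries. In GFP-high against GFP-low cells 26 of the 38 were called lower, beside 2.59% of all genes kept, and 1 higher, beside 6.94%. In GFP-high against GFP-mid cells 26 were called lower, beside 1.52%, and 0 higher, beside 1.32%, with a median log2 difference of -1.67 beside -0.00 over all genes kept. Among those lower were Lyzs, the scavenger receptor Marco (1517, 2170 and 242 counts in GFP-low, GFP-mid and GFP-high cells) and Sfpi1, the gene of PU.1 (72, 99 and 12). The oxidase subunit Cybb was also lower, with 336, 359 and 52 counts, or 42.1, 28.4 and 5.52 CPM. The gene called higher against GFP-low was Cebpa, a transcription factor that other tissues also use, with 14, 82 and 95 counts. Irf8, a transcription factor of myeloid and lymphoid cells, had 150 to 1311 counts in all 12 libraries and no such order, at 40.3, 53.8 and 71.6 CPM in the fractions.

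Lists of genes that more cell types share were counted in the same way. Of 40 pan-leukocyte signalling and cytoskeleton genes, 33 passed the filter, 7 of them only through the sorted libraries. In GFP-high against GFP-low cells 14 of the 33 were called lower, beside 2.59% of all genes kept, and 0 higher, beside 6.94%, with a median of -0.88. Rac2, a GTPase of blood cells, was among them with 198, 143 and 25 counts. Of 32 broadly expressed lysosome genes, all passed the filter, and in the same comparison, with the same shares of all genes beside it, 2 were called lower (Ctsh and Scarb2) and 0 higher, with a median of -0.36. Ctsd, a widespread cathepsin, was at 1050, 862 and 747 CPM in the fractions.

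Markers of other cell types were summed in the same way. Lymphocyte markers summed to 19.2, 18.9 and 17.5 CPM in the low, mid and high fractions. Of the 23, 14, 11 and 13 were at 0 counts there, Cd3d among them, and 3, 4 and 4 were above 3 counts. Endothelial markers summed to 131, 102 and 104 CPM over 18 genes, of which 12, 13 and 13 were above 3 counts, and Cdh5 had 6, 1 and 10 counts. Of the 11 endothelial genes kept, 2 were called lower in GFP-high against GFP-low cells, beside 2.59% of all genes kept. In that comparison 1 was called higher, beside 6.94%, and the median log2 difference was -0.32. Erythroid and megakaryocyte markers summed to 5.52, 5.62 and 7.64 CPM. Granulocyte and mast cell markers summed to 175, 110 and 84.7 CPM, of which Mmp9, a protease that macrophages and other cells make too, gave 132, 67.1 and 55.5 CPM, while S100a9 was at 0 counts in all 12 libraries. The filter kept 5 of these 22 genes, 1 of them only through the sorted libraries, and 3 of the 5 were called lower in GFP-high against GFP-low cells (Mmp9, Fpr1 and S100a8), beside 2.59% of all genes kept, and 0 higher, beside 6.94%, with a median log2 difference of -1.23. Their part in the myeloid result was not tested.

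**Figure D5:**
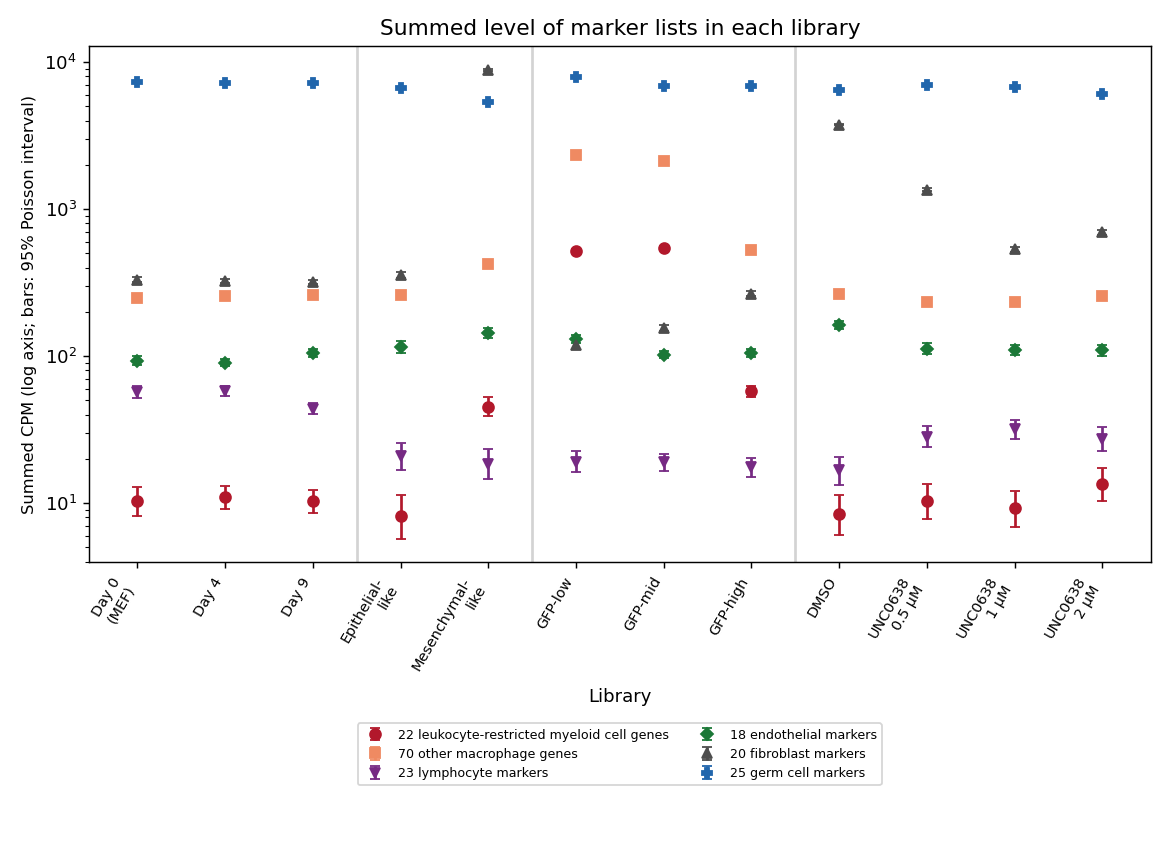
Summed CPM (log axis) of the 22 restricted myeloid genes and of 5 other marker lists in each of the 12 libraries. Bars are 95% Poisson intervals and grey lines separate the experiments. The 22 genes and the 70 other macrophage genes are highest in GFP-low and GFP-mid cells, where lymphocyte and endothelial markers lie within the range of the other 9 libraries, and fibroblast markers peak in the mesenchymal-like culture at 8843 CPM. The lysozyme gene Lyzs alone gave most of the counts of the 70-gene sum in GFP-low and GFP-mid cells.

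The genes most like the restricted set over the 12 libraries were sought among 14274 others that passed the filter, by the Pearson r between their log2(TPM + 1) and the mean log2(TPM + 1) of the 23 restricted genes. The first 10 had r of 0.983 to 0.991, with the next at 0.982, so the last of them is not set apart. They were Tlr13, Ms4a6c, Cxcl13, Lilrb3, Igsf6, Cybb, BC032204, Plek, Csf2rb1 and EG624696. Since 9 of the 12 libraries are near 0 for these genes, r mostly reflects the 3 fractions. Cxcl13, a chemokine for B cells, had 921, 1739 and 65 counts in GFP-low, GFP-mid and GFP-high cells and 0 in each of the other 9, a step of 16.7-fold between GFP-low and GFP-high (95% interval of the log2 ratio of GFP-high to GFP-low -4.45 to -3.70). Lilrb3, an inhibitory leukocyte receptor, had 168, 236 and 14 counts (21.1, 18.7 and 1.49 CPM) and at most 1 count elsewhere.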

How the data were processed

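RNA was measured in 12 libraries, 1 per group. Per the submitters' processing notes, reads were trimmed with Trim Galore and quantified with RSEM, with mm10 as the genome build; the versions are not given in the sources used here. The authors deposited an expected count and a TPM value per gene and library; both are in the deposited tables under gene symbols of an older annotation. Older symbols were matched through the synonyms of RefSeq's gene table, whose assembly is GRCm38.p6, and coordinates and promoter windows are RefSeq's.

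The expected counts were rounded and scaled to CPM with TMM factors from all 12 libraries (edgeR 4.0.16, R 4.3.3). Log values are log2(CPM + 1), which understates the change of low genes. Genes averaging 1 CPM or more were kept (14301 of 27128), and a difference of at least 1 on the log2 scale was called. Folds with intervals have no pseudocount, and their 95% Clopper-Pearson intervals, like the Poisson intervals of sums, cover counting error only. Genes are ranked by abundance only on the deposited TPM scale, and a gene's share of a sum is a share of its reads or TPM, as named. Scripts were tested on simulated data. Since the reads carry no molecular identifiers, PCR copies cannot be told from separate molecules and the intervals leave them out.

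All 34 genes, the genes of 12 other lists and the 10 most correlated genes could be named. The members and lists were chosen with earlier results of these data known. The alternatives tried were pseudocounts of 0.1 and 5, a filter at 10 CPM or none, scaling by total counts or by size factors from DESeq2 1.42.0, and TPM in place of CPM. Whether samples came from separate cultures is not stated.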

Additional observations from a re-analysis of the deposited data

How the results depend on the processing

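Each of the 18 counts of genes called, in 9 comparisons and 2 directions, was recomputed under 7 alternatives. With DESeq2 size factors, with total counts and with no filter, all 18 stayed within 1.5 times of the reported count. The 23 genes called lower in GFP-high against GFP-mid and GFP-low cells moved under the filter at 10 CPM only, to 5 in each comparison, since that filter left 7 of the genes. The small counts outside the fractions depended on the scale. With the deposited TPM, the count of genes called lower at day 4 was 0, higher at day 9 it was 0, higher in the mesenchymal-like culture 10 and higher at 2 µM UNC0638 0. With a pseudocount of 0.1, 3 genes were called higher at day 4, 3 lower and 3 higher at day 9, 1 lower and 14 higher in the mesenchymal-like culture, 5 higher at 0.5 µM, 5 lower and 3 higher at 1 µM, and 4 higher at 2 µM. With a pseudocount of 5, 0 were called lower at day 4, 0 lower and 0 higher at day 9, 1 higher in the mesenchymal-like culture, 0 lower at 1 µM, and 0 lower and 0 higher at 2 µM. With the filter at 10 CPM, 0 were called lower at day 4, 0 lower and 0 higher at day 9, 3 higher in the mesenchymal-like culture, 0 lower at 1 µM, and 0 lower and 0 higher at 2 µM. The cause of these shifts was not tested beyond the construction of each alternative.

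For the 34 single genes in GFP-high against GFP-low cells, no alternative turned a called direction. With a pseudocount of 5, Cd14, Fcgr2b and Ms4a7 lost the call, which left 20 of 23, and against GFP-mid cells Cd52 lost it, which left 22 of 23. That pseudocount shrank the log2 difference of 14 single genes by more than the half-width of their counting interval, and the deposited TPM moved those of Apoe and Lgmn by more than theirs. The sum of the 22 genes between the mesenchymal-like and epithelial-like cultures was 2.41-fold without Cd53, against 5.53-fold with it, and between GFP-low cells and the mesenchymal-like culture 28.1-fold, against 11.5-fold. With Coro1a in the sum these became 1.70-fold and 6.84-fold, and GFP-low against GFP-high cells 4.72-fold in place of 9.04-fold. Both choices of genes were added after the data were seen. The deposited TPM moved the median of all genes in GFP-high against GFP-low cells to 0.11, and in day 9 against day 0 to 0.13; total counts moved the mesenchymal-like comparison to -0.12. Depth limits the genes outside the fractions: 3 counts equal up to 0.724 CPM. No paired analysis was possible because each RNA group has 1 library and the labels give these libraries no replicate number. Leaving out a replicate was not possible for the same reason.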

Other observations

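Chi3l3, a chitinase-like protein secreted by alternatively activated macrophages, had 5736, 7357 and 775 counts in the low, mid and high fractions and at most 1 count in each of the other 9. In CPM Chi3l3 was at 719, 583 and 82.3, and it was 1.23-fold higher in GFP-low than in GFP-mid cells (1.19 to 1.28). It was 8.74-fold higher in GFP-low than in GFP-high cells (95% interval 8.11 to 9.44, counting error only). Sepp1, a secreted selenium carrier, had 2340, 4220 and 407 counts in the same fractions. In the other 9 libraries it had 51 to 428 counts, with a median of 28.9 CPM beside 43.2 CPM in GFP-high cells. Both genes were chosen after their values were seen.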
